A study of Mus musculus with 4 samples.

Results

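The 34 genes described here encode the route by which a cell takes up glucose, splits it to pyruvate, turns pyruvate into lactate or sends it to mitochondria, and diverts glucose 6-phosphate into the pentose phosphate pathway. They were taken as a list of named genes, chosen with earlier results of these data known, and all 34 were found among the 24421 genes of the tables. Mouse cells were sorted for the plasma cell surface phenotype CD138+ B220- and profiled as 4 single-cell RNA libraries. The wild-type group (WT) is 1 library from the bone marrow of age-matched control animals. The VQ group, labelled VQ-D2 and multiple myeloma, is 2 bone marrow libraries and 1 lymph node library of donor-derived cells taken from recipients. The genotype label of the VQ libraries lists V{kappa}*MYC, Nras LSL Q61R/+ and IgG1-Cre, followed by the word recipient. All 4 libraries are on the C57/BL6 background. In this model the mutant Nras allele is silent until Cre, expressed from the IgG1 locus, removes its stop cassette, so it is switched on in B cells that transcribe the IgG1 constant region, and the MYC transgene is switched on by somatic hypermutation in germinal centre B cells. The labels do not state how many animals stand behind each library or whether the lymph node and marrow cells share an animal.

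Glycolysis makes ATP and carbon for biosynthesis in the cytosol, and the pentose phosphate pathway makes NADPH and the ribose of nucleotides. Lactate dehydrogenase regenerates the NAD+ that glycolysis consumes, and monocarboxylate transporters carry the lactate and its proton across the plasma membrane. Several of these steps are catalysed by isoenzymes from separate genes, and several genes of the route are known targets of MYC and of the hypoxia-inducible factor HIF-1.

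WT cells were kept where Jchain, the joining chain of secreted antibody, made up at least 5% of a cell's UMIs (counted transcripts), and VQ cells where it made up less than 5%. This kept 106 of 163 WT cells, 226 of 245 and 170 of 188 VQ marrow cells in replicates 1 and 2, and 185 of 185 lymph node cells. The split falls between clearly different levels: the median Jchain share of kept cells was 19.7% in WT and 0.469% to 0.513% in the VQ libraries. In all, 27 WT cells and 0 to 5 cells of each VQ library lay between 2% and 10%. With Jchain left out, the kept cells held 162471 UMIs in WT, 1039024 and 441973 in the VQ marrow replicates and 799731 in lymph node, so the WT values are the least precise. No cell barcode was shared between libraries. Levels are UMI counts per 1000000 (CPM), scaled by TMM (a normalisation that corrects for differences in composition) without Jchain. Each is given for WT, VQ marrow replicate 1, VQ marrow replicate 2 and lymph node, in that order. Plasma cell markers other than Jchain summed to 218 UMIs per 10000 in WT and 109 to 118 in the VQ libraries. The kept cells also differed in other markers. Of 30 proliferation genes, 12 were at 0 in WT and the list summed to 3.88 UMIs per 10000, against 44.3, 43.1 and 37.9 in the VQ libraries. The 9 neutrophil markers summed to 0.800, 10.1, 29.3 and 0.0125, and the 12 markers of B cells and their precursors to 3.20, 0.0289, 0.0453 and 0.0125. The part of these differences in the results was not tested beyond the settings that leave such cells out.

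The route as a whole took a larger share of transcripts in the VQ libraries than in WT, with the largest difference in the lactate genes. All 34 genes together made up 29.2 of 10000 UMIs in WT (95% counting interval 26.6 to 31.9), 44.4 (43.1 to 45.7) and 41.9 (40.0 to 43.9) in the VQ marrow replicates and 50.9 (49.3 to 52.5) in lymph node. The lactate genes (Ldha, Ldhb, Slc16a1, Slc16a3 and Bsg) differed most, with 4.37 per 10000 in WT and 14.7, 14.6 and 17.0 in the VQ libraries. Lower glycolysis, from Tpi1 to Pkm, held 3.08, 7.47, 6.45 and 9.07, and pyruvate dehydrogenase with its kinases 1.97, 4.70, 4.73 and 4.39. Upper glycolysis, from hexokinase to aldolase, did not follow this pattern, with 9.17 in WT, 7.41 and 5.88 in VQ marrow and 9.12 in lymph node. That sum leaned on Aldoa, which held 99 of its 149 UMIs in WT and was lower in VQ marrow, while Gpi1 was higher. The pentose phosphate genes held 9.60, 9.35, 9.30 and 10.7 per 10000, with overlapping counting intervals for WT and every VQ library. Of the 156 UMIs of this step in WT, Rpia and Taldo1 held 47 and 45. Both were lower in VQ marrow, while Pgd and Tkt were higher. These sums are descriptions with counting error only, since WT and lymph node are 1 library each. Among single cells with at least 500 UMIs the median share of the 34 genes was 25.8 per 10000 in WT, 43.8 and 40.9 in VQ marrow and 48.4 in lymph node.

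**Figure D1:**
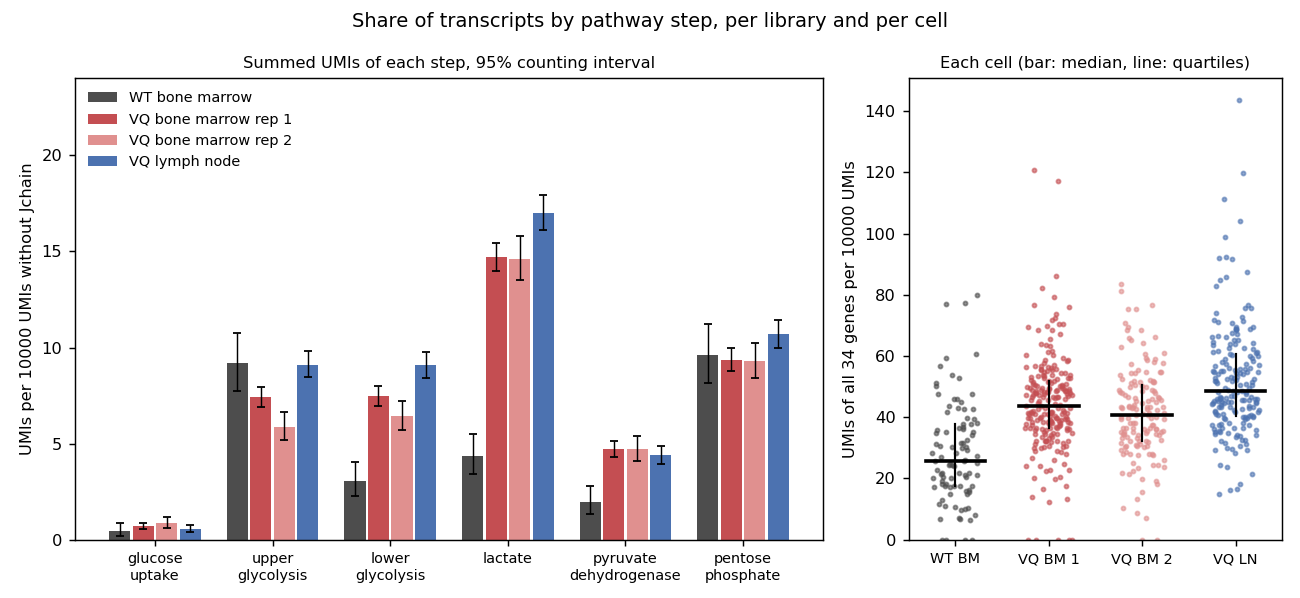
Left, summed UMIs of each step per 10000 UMIs without Jchain in each library (bars, with 95% counting intervals); right, the share of all 34 genes in each cell with at least 500 UMIs (points), with the median and quartiles of the library. The lactate step stands at 4.37 in WT and at 14.6 to 17.0 in the VQ libraries, while the pentose phosphate step lies between 9.30 and 10.7 in all 4.

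VQ marrow was compared with WT marrow in a fit across 8414 genes, in which 30 of the 34 genes passed the filter on low counts; Pfkfb3, Pgam1, Eno1 and Ldhb did not. With edgeR's quasi-likelihood test and Benjamini-Hochberg adjustment over all genes tested, 9 of the 30 were higher in VQ marrow (background: 17.0% of all genes tested) and 4 were lower (background: 12.3%). The higher genes were Gpi1, Tpi1, Pkm, Ldha, Slc16a1, Pdk1, Pdha1, Pgd and Tkt, and the lower ones Aldoa, Hif1a, Rpia and Taldo1. The median log2 fold change of the 30 was 0.96, or 0.79 with the 3 genes at 0 UMIs in WT set to their bounds, beside 0.19 over all genes tested. A gene that passed the filter through its VQ counts alone, or through WT alone, had to differ. These figures therefore describe the list and support nothing further. The same limit holds for the p-value against WT of each gene given below with 0 UMIs in WT, and for that of Hif1a. The only replicate spread in this fit is that of the VQ marrow pair, which the single libraries are assumed to share, and the labels do not say whether the pair is more than a technical repeat. With DESeq2, 3 of the 13 calls held (Ldha, Slc16a1 and Aldoa). Leaving out every cell with 1 or more UMIs of a proliferation gene kept 61 WT and 12 and 23 VQ marrow cells. These held 83733, 14813 and 15366 UMIs without Jchain, so most of the VQ marrow data was removed. In this setting, called without proliferating cells for short, none of the 9 genes still tested passed edgeR's test, and 1 (Ldha) had an unadjusted p under 0.05.

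**Figure D2:**
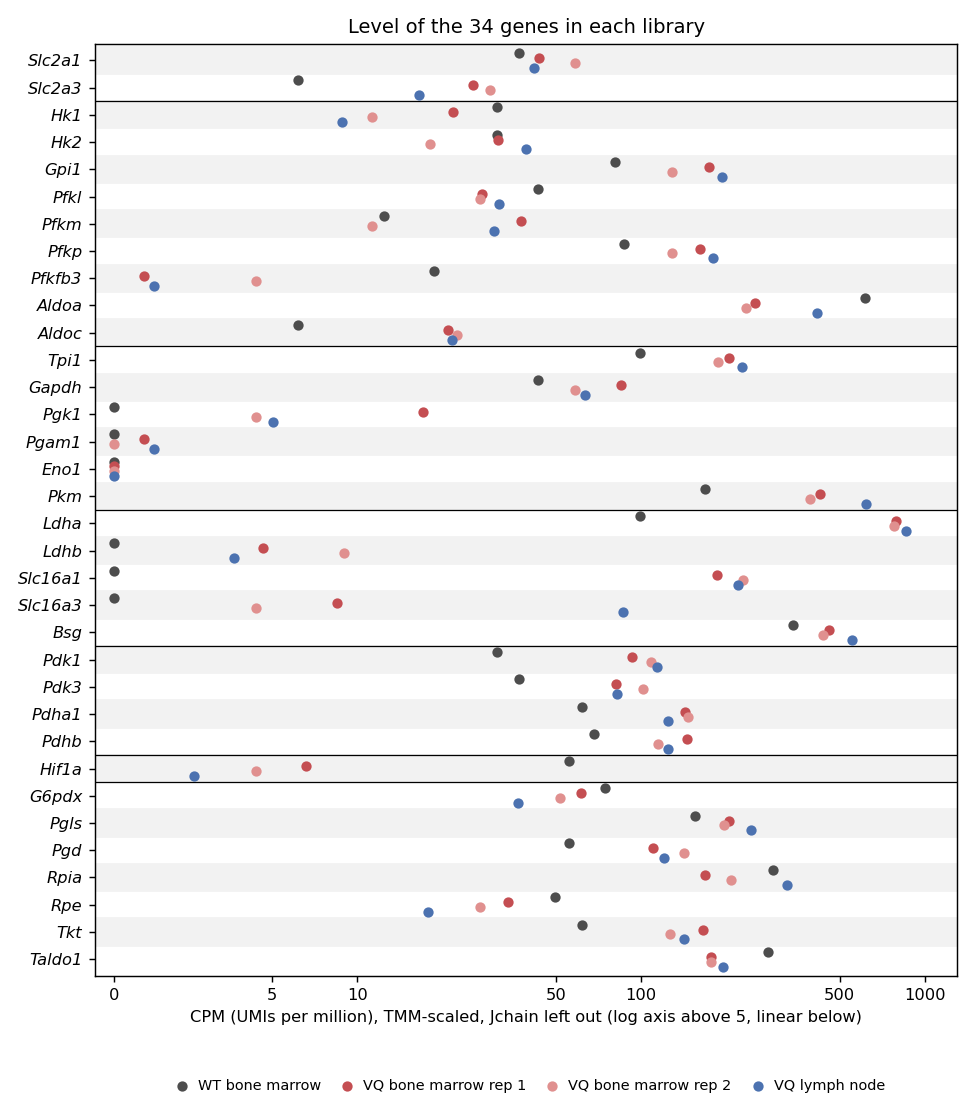
Level of each of the 34 genes in each library, in TMM-scaled CPM with Jchain left out, grouped by step from glucose uptake at the top to the pentose phosphate pathway at the bottom. Ldha lies at 99.3 in WT and between 778 and 860 in the VQ libraries, Slc16a1 at 0 in WT and between 184 and 228, and Slc16a3 at 0 to 8.51 in the marrow libraries and at 86.1 in lymph node.

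Ldha, the lactate dehydrogenase subunit that predominates in glycolytic tissues, showed the clearest difference with a count in both groups. Its level was 99.3 CPM in WT, 791 and 778 in the VQ marrow replicates and 860 in lymph node, from 16, 836, 345 and 679 UMIs. Every VQ library was far above WT, and the VQ marrow pair differed little (mean 784 ± 9.23, SD, n = 2). The fold was 7.93 (95% counting interval 4.86 to 13.9) in VQ marrow over WT, with a log2 fold change of 2.98 ± 0.28 (SE, adjusted p = 1.85e-20). Leaving out either VQ marrow replicate moved the log2 fold change only between 2.97 and 2.99, as a value with no test. With all cells of each library it was 1.72 (adjusted p = 3.23e-08), and without cells holding MHC class II UMIs 1.99 (adjusted p = 0.00295). Without proliferating cells it was 1.87 ± 0.88 (adjusted p = 0.214), and without cells holding markers of another cell type 2.94 ± 0.31 (adjusted p = 4.99e-19). Ldha lies on chromosome 7, 46841475 to 46855627 (GRCm38), plus strand.

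The other subunit, Ldhb, which favours lactate oxidation and predominates in heart, was nearly silent: 0, 5, 4 and 3 UMIs. Ldha thus made up 100% of the pair's 16 UMIs in WT (exact Clopper-Pearson 95% interval 79.4 to 100) and 99.4%, 98.9% and 99.6% in the VQ libraries. The isoenzyme make-up of this step did not differ beyond these intervals among the 4 libraries.

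Slc16a1, which encodes the monocarboxylate transporter MCT1, was not detected in WT. It had 0 UMIs in the 106 WT cells, which allows a level of up to 18.6 CPM, and stood at 184 and 228 CPM in VQ marrow (195 and 101 UMIs) and 219 in lymph node (173 UMIs). All 3 VQ libraries were thus at a like level. VQ marrow was at least 10.6-fold higher than WT, against a floor of 3 counts in the WT library, with an adjusted p of 2.93e-12. With all cells of each library, which gave WT 7 UMIs, the fitted log2 fold change was 3.11 (adjusted p = 1.77e-07). The gene lies on chromosome 3, 104638668 to 104658462, plus strand. Bsg, or basigin, the chaperone that carries MCT1 and MCT4 to the cell surface, was abundant everywhere, at 341, 457, 437 and 555 CPM. It was not called in VQ marrow against WT, where the fold was 1.32 (1.00 to 1.77).

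Ldha and Slc16a1 were the 2 members with the smallest adjusted p in VQ marrow against WT. That of Slc16a1, with 0 UMIs in WT, supports nothing further. Both genes are textbook targets of MYC. The stretches before their starts are therefore shown with the E-box CACGTG, the core sequence to which MYC and MAX bind, in capitals. They come from RefSeq's promoter table (GRCm38.p6), which held 32 of the 34 genes, with 250 bases before and 50 after each listed start. The Slc16a1 stretch is chr3:104638437-104638496 (plus strand) and its E-box begins 200 bases before the start, outside any GENCODE transcript. The Ldha stretch is chr7:46845639-46845781 (plus strand), with E-boxes beginning 145 and 48 bases before the first of 2 listed starts; it holds no annotated exon and lies in an intron of 1 longer Ldha transcript.
Slc16a1: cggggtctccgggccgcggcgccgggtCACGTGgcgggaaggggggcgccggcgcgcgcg
Ldha: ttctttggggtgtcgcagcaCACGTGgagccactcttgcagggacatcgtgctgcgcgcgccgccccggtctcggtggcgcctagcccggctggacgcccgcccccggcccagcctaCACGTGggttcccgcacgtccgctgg
An E-box stood in 5 of the 32 genes (15.6%; Hif1a, Ldha, Pfkfb3, Pfkm and Slc16a1), beside 8.09% of all genes in the table and 12.7% of those tested here. Of these 5, Hif1a was lower in VQ marrow, Pfkm was not called and Pfkfb3 was not tested. CACGTG reads the same on both strands. These matches describe letters in a window and no binding was measured. A part of MYC in the differences given here was not tested.

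In lymph node against VQ marrow, 4 of the 30 genes tested were higher (Aldoa, Pkm, Slc16a3 and Rpia; background: 1.76% of all genes tested) and 0 were lower (background: 1.24%), and none of the 30 was lower in lymph node at an unadjusted p under 0.05 with edgeR. DESeq2 called 0 of the 30, with 2 at an unadjusted p under 0.05. The median log2 fold change of the 30 was 0.090, beside -0.01 over all genes tested. Slc16a3 passed the filter on low counts through lymph node alone and had to differ. These figures therefore describe the list and support nothing further.

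Slc16a3, which encodes MCT4, the low-affinity transporter known for lactate export from strongly glycolytic cells, set the lymph node library apart. It had 0 UMIs in WT, 9 and 2 in the VQ marrow replicates and 68 in lymph node, or 0, 8.51, 4.51 and 86.1 CPM. Lymph node was 11.7-fold above VQ marrow (6.17 to 24.6), a log2 fold change of 3.53 ± 0.42 (adjusted p = 6.41e-13). With these counts Slc16a3 passed the filter on low counts through lymph node alone. It therefore had to differ, and its p-values describe the gene and support nothing further. The 68 UMIs came from 36 cells, with at most 8 in 1 cell. Slc16a3 is also expressed by myeloid cells. In lymph node the 9 neutrophil markers summed to 1 UMI and the 8 macrophage markers to 77, with 6 of them at 0. Without cells holding 2 or more UMIs of another cell type's markers, the log2 fold change was 4.16 ± 0.48. The part of myeloid cells in the Slc16a3 counts was not tested. DESeq2 gave an unadjusted p of 0.00851 and no adjusted p for this gene.

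Slc16a1 did not follow Slc16a3. Between lymph node and VQ marrow its fold was 1.11 (0.915 to 1.34), with adjusted p = 0.881. The share of MCT4 among UMIs of both transporters was therefore 4.41% (2.04 to 8.21) and 1.94% (0.236 to 6.84) in the VQ marrow replicates and 28.2% (22.6 to 34.4) in lymph node, and the intervals of marrow and lymph node do not overlap. Counts are of 1 tag per transcript at its 3′ end and are not divided by gene length. Slc16a3 lies on chromosome 11, 120948480 to 120960868, plus strand. The stretch before its start, chr11:120949007-120949066 (plus strand, GRCm38.p6), is shown because it holds 2 copies of ACGTG, the core of the hypoxia response element, in capitals and beginning 27 and 14 bases before the start; its last 14 bases lie in the first exon of 1 GENCODE transcript of the gene.
Slc16a3: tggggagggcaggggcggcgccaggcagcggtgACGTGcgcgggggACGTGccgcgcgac
ACGTG on either strand, which CACGTG also contains, was found in 18 of the 32 genes (56.3%), beside 21.8% of all genes and 31.5% of those tested here. The table lists 1.44 starts per gene of the list and 1.27 per gene tested, so the list had more windows to match in.

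**Figure D3:**
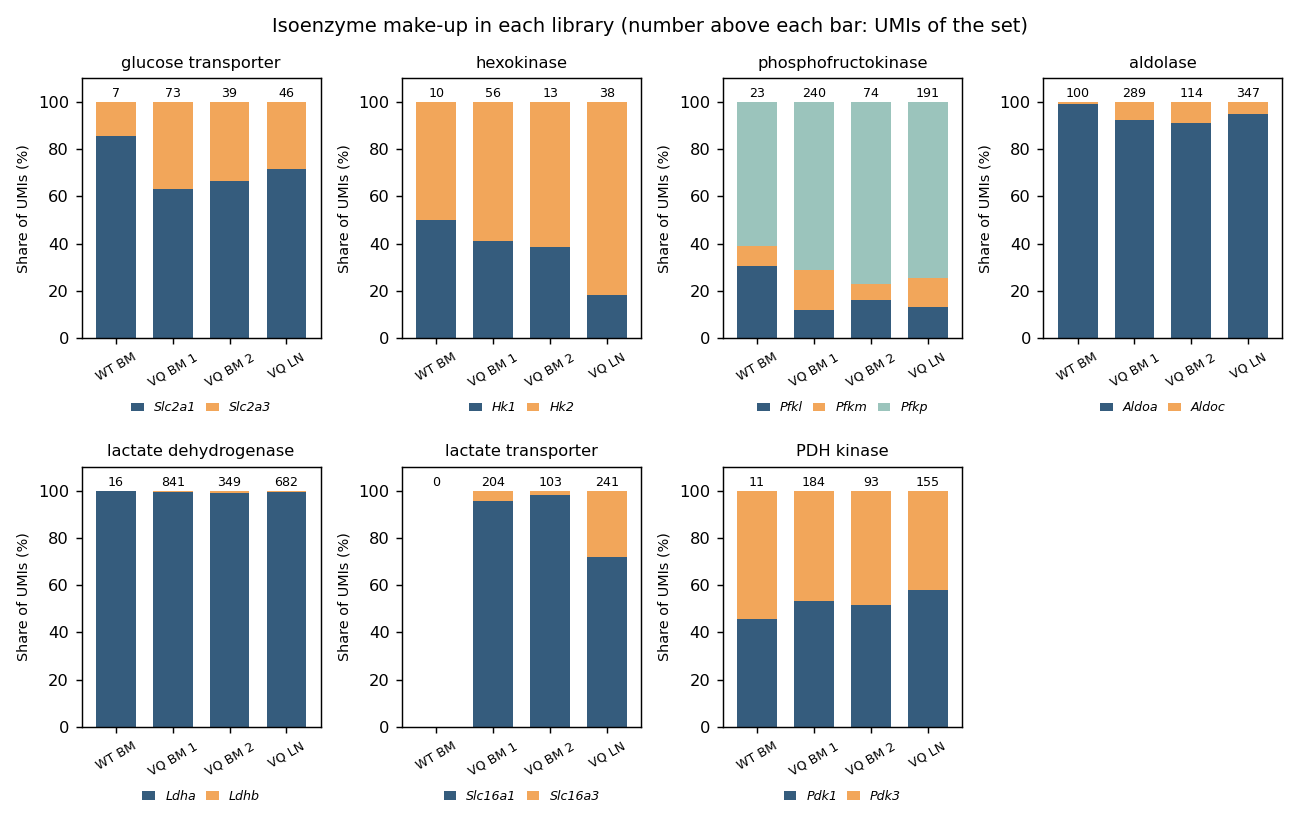
Share of UMIs that each isoenzyme holds within its set in each library, with the number of UMIs of the set above each bar. Slc16a3 holds 4.41% and 1.94% of the lactate transporter UMIs in VQ marrow and 28.2% in lymph node, and WT has 0 UMIs of this set.

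The glucose transporters of the list were at low counts, and with 7 UMIs in WT their difference from WT was poorly measured. Slc2a1, the ubiquitous transporter GLUT1, had 37.2, 43.5, 58.6 and 41.8 CPM, and the fold of VQ marrow over WT was 1.29 (0.564 to 3.63). Slc2a3, the high-affinity GLUT3, had 6.21, 25.5, 29.3 and 16.5 CPM; the WT value is 1 UMI and the fold, 4.29, has an interval of 0.728 to 174. Neither passed the test in either comparison. GLUT3 made up 37.0%, 33.3% and 28.3% of the pair in the VQ libraries, with overlapping intervals, and 1 of 7 UMIs in WT.

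Upper glycolysis held genes that went in opposite directions. Gpi1, the isomerase that follows hexokinase, had 80.7 CPM in WT, 174 and 129 in VQ marrow and 192 in lymph node, and was higher in VQ marrow than WT (log2 fold change 0.96 ± 0.38, adjusted p = 0.0437). The call was lost with the Jchain split at 2% (log2 fold change 0.84, adjusted p = 0.0945) and at 10% (0.99, adjusted p = 0.079), though the value changed little. With all cells of each library, which brings in the 57 WT cells under the split, Gpi1 had a log2 fold change of -0.02 (adjusted p = 0.968). Aldoa, the main aldolase, was the counterpart: 614 CPM in WT, 253 and 234 in VQ marrow and 418 in lymph node. WT was the highest of the 4 libraries and the VQ marrow pair the lowest. Aldoa was 2.49-fold lower in VQ marrow than in WT (1.97 to 3.11; log2 fold change -1.33 ± 0.21, adjusted p = 2.76e-08). It was 1.69-fold higher in lymph node than in VQ marrow (1.45 to 1.97; log2 fold change 0.77 ± 0.17, adjusted p = 0.00121). Aldoc, the aldolase known from brain, had 1, 22, 10 and 17 UMIs. It made up 1.00% of the aldolase UMIs in WT (0.0253 to 5.45), 7.61% (4.83 to 11.3) and 8.77% (4.29 to 15.5) in VQ marrow and 4.90% (2.88 to 7.73) in lymph node, without passing the test in either comparison.

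The phosphorylating steps of upper glycolysis were at low counts. Hk1 and Hk2, which trap glucose in the cell, had 5 UMIs each in WT, and neither was called. Hk2, the inducible hexokinase, held 58.9% (45.0 to 71.9) and 61.5% (31.6 to 86.1) of the hexokinase UMIs in VQ marrow and 81.6% (65.7 to 92.3) in lymph node, and these intervals overlap. Among the phosphofructokinases, which commit the sugar to glycolysis, the platelet type Pfkp was the main one in every library, with 60.9%, 71.3%, 77.0% and 74.3% of their UMIs. Pfkp stood at 86.9, 162, 129 and 180 CPM, and its adjusted p against WT was 0.105. The liver type Pfkl had 43.4, 27.4, 27.1 and 31.7, and the muscle type Pfkm 12.4, 37.8, 11.3 and 30.4, with no call in either comparison. Pfkfb3, which makes the activator fructose 2,6-bisphosphate, had 3, 1, 2 and 1 UMIs and was not tested.

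In lower glycolysis, the genes at either end rose. Tpi1, triose phosphate isomerase, had 99.3 CPM in WT, 203 and 187 in VQ marrow and 227 in lymph node, a log2 fold change of 0.99 ± 0.35 in VQ marrow over WT (adjusted p = 0.0201). The annotated 3′ ends of Tpi1, Pfkp, Pdha1 and Rpe overlap a gene on the opposite strand, and whether the counting used strand is not given in the sources used here. Pkm, which encodes pyruvate kinase M, had 168 in WT, 428 and 392 in VQ marrow and 622 in lymph node. The libraries stood in 3 separate tiers. VQ marrow was 2.49-fold above WT (1.69 to 3.81; log2 fold change 1.30 ± 0.27, adjusted p = 2.99e-05), and lymph node was 1.49-fold above VQ marrow (1.32 to 1.68; 0.59 ± 0.16, adjusted p = 0.0149). With DESeq2 neither Pkm difference was called. A 3′ tag does not separate the M1 and M2 splice forms of Pkm.

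The middle of lower glycolysis was poorly measured. Gapdh had only 7, 90, 26 and 50 UMIs, or 43.4, 85.1, 58.6 and 63.3 CPM. Of the 50-base windows in the last 400 bases of its transcript, 87.7% also occur in transcripts of 116 other annotated genes, so its count is uncertain. The same was so of 7.69% of windows for Ldhb, 7.12% for G6pdx, 5.41% for Gpi1 and 1.71% for Aldoa. Eno1, the ubiquitous enolase, had 0 UMIs in all 4 libraries, and 83.8% of its windows also occur in Eno1b, a gene of nearly the same sequence. Eno1b, which is outside the 34, had 18.6 CPM in WT, 159 and 237 in VQ marrow and 309 in lymph node. It was 9.77-fold higher in VQ marrow than WT (3.31 to 47.7; log2 fold change 3.34 ± 0.54, adjusted p = 5.86e-08) and 1.70-fold higher in lymph node than VQ marrow (1.42 to 2.03; 0.70 ± 0.19, adjusted p = 0.0128). Reads of Eno1 and Eno1b cannot be told apart over that shared sequence. Pgk1 had 0, 18, 2 and 4 UMIs and Pgam1 0, 1, 0 and 1, and neither shares a window with another gene's transcript. Both encode enzymes that glycolysis needs in most tissues.

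**Figure D4:**
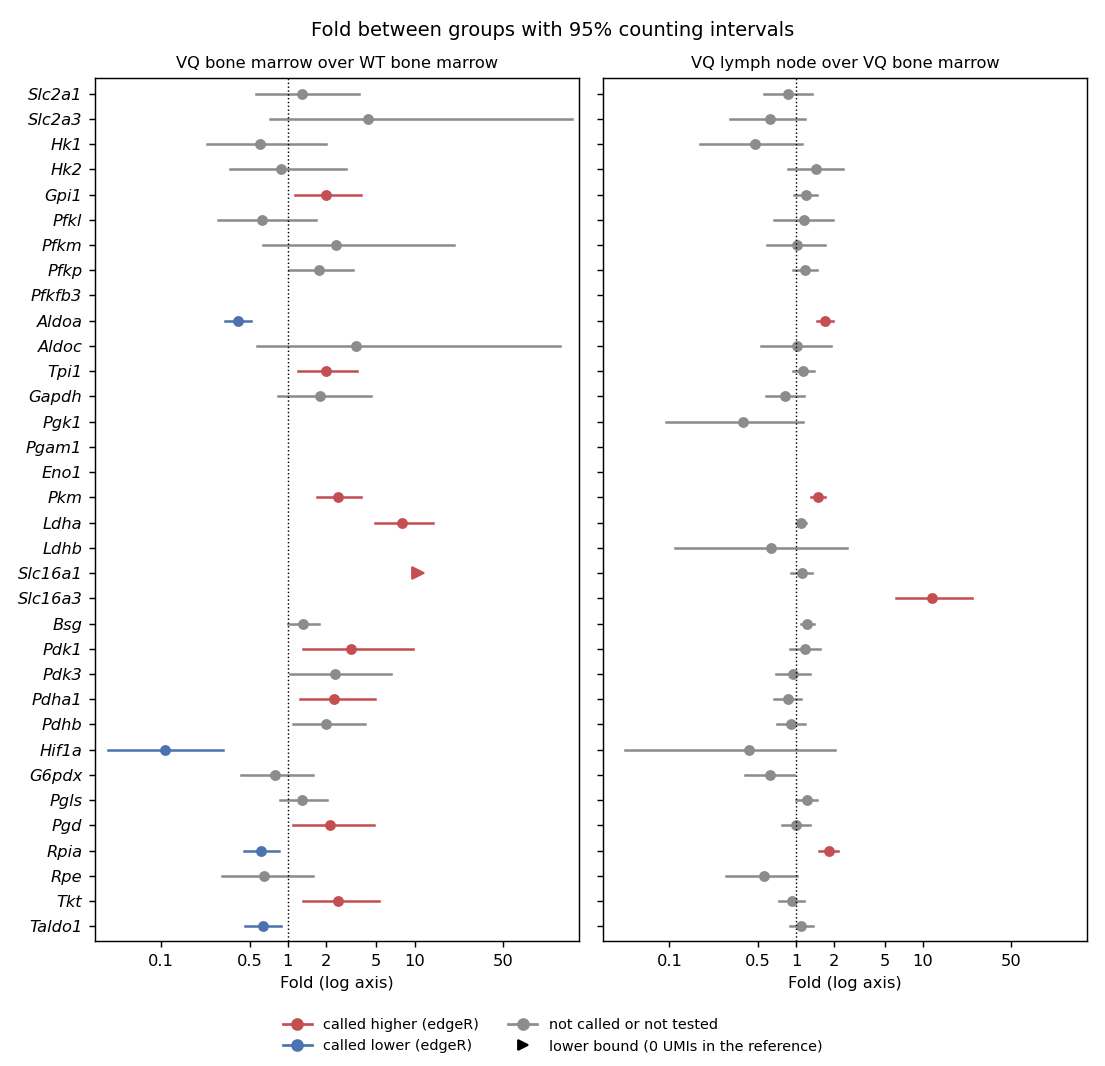
Fold of each gene in VQ marrow over WT marrow (left) and in lymph node over VQ marrow (right), from summed UMIs with 95% counting intervals, on log axes; colours mark edgeR's calls, the arrowhead marks a lower bound, and a blank row had too few UMIs for a fold or an informative bound. Ldha at 7.93 and Slc16a1 at no less than 10.6 lead on the left, and Slc16a3 at 11.7 on the right.

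At the entry of pyruvate into mitochondria, 2 of the 4 genes were higher in VQ marrow: Pdha1, of the enzyme, and Pdk1, of the kinases that switch it off. Pdha1, the catalytic alpha subunit of pyruvate dehydrogenase, had 62.1, 143, 147 and 124 CPM (log2 fold change over WT 1.21 ± 0.41, adjusted p = 0.0160). Pdhb, the beta subunit, had 68.3, 145, 115 and 124 with adjusted p = 0.0581. Pdk1, the inhibitory kinase known as a HIF-1 target, had 31.0, 92.7, 108 and 114 (1.66 ± 0.54, adjusted p = 0.0119), and Pdk3 had 37.2, 81.4, 101 and 82.3 with adjusted p = 0.0629. All 4 genes were lowest in WT, at 5 to 11 UMIs there. The kinases kept a like balance, Pdk1 holding 53.3%, 51.6% and 58.1% of the pair in the VQ libraries, and the alpha subunit held 49.7%, 56.0% and 50% of the 2 subunits. Between lymph node and VQ marrow no gene of this step was called.

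Hif1a, the oxygen-regulated subunit of HIF-1, was sparse, and lower in the VQ libraries. It had 9 UMIs in WT against 7, 2 and 2 in the far deeper VQ libraries, or 55.9, 6.62, 4.51 and 2.53 CPM. VQ marrow was 9.31-fold lower than WT (3.28 to 26.5; log2 fold change -3.19 ± 0.95, adjusted p = 0.00515). With these counts Hif1a passed the filter on low counts through WT alone. It therefore had to differ, and its p-value describes the gene and supports nothing further. The call was lost with DESeq2 and with the split at 10%. Hif1a activity is set mainly at the protein level, which was not measured.

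The pentose phosphate pathway kept its share of transcripts while its genes moved apart. In the oxidative branch, G6pdx, the NADPH-producing entry enzyme, had 74.5, 61.5, 51.9 and 36.7 CPM and was not called in either comparison. Pgls, the lactonase, had 155, 204, 196 and 244 and was not called. Pgd, the second NADPH-producing enzyme, had 55.9 in WT, 110 and 142 in VQ marrow and 120 in lymph node (log2 fold change over WT 1.12 ± 0.44, adjusted p = 0.0437). That call was kept in 4 of 12 other settings with a test.

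In the non-oxidative branch, Tkt, transketolase, had 62.1 CPM in WT, 166 and 126 in VQ marrow and 142 in lymph node (log2 fold change over WT 1.28 ± 0.41, adjusted p = 0.0104). With all cells of each library its log2 fold change was -0.11 (adjusted p = 0.778). Taldo1, transaldolase, its partner in shuffling sugar phosphates, had 279, 177, 176 and 195 (-0.66 ± 0.27, adjusted p = 0.0465). Rpia, the isomerase that forms ribose 5-phosphate, had 292 in WT, 167 and 207 in VQ marrow and 325 in lymph node. Rpia was thus low in VQ marrow alone: 1.63-fold lower than in WT (1.17 to 2.23; log2 fold change -0.67 ± 0.26, adjusted p = 0.0391), and 1.82-fold higher in lymph node than in VQ marrow (1.52 to 2.16; 0.83 ± 0.19, adjusted p = 0.00105). The differences of Taldo1 and Rpia from WT changed sign without cells holding a UMI of a proliferation gene, at log2 fold changes of 0.23 and 0.13. Rpe, the epimerase, had 49.7, 34.1, 27.1 and 17.7 and was not called.

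Lymph node against WT is 1 library against 1 and has no test. At least 2-fold above WT were 14 of 30 genes, beside 23.6% of 8346 genes compared, and at least 2-fold below were 4 (Hk1, Hif1a, G6pdx and Rpe), beside 19.0%. This comparison shares its lymph node and WT libraries with the 2 above. Of the 14, Slc2a3, Pfkm, Aldoc, Slc16a1 and Slc16a3 passed the filter on low counts through VQ libraries alone and had to differ. Hif1a passed it through WT alone. Both counts therefore describe the list and support nothing further. Ldha was 8.66-fold above WT (5.29 to 15.2), Pkm 3.71-fold (2.52 to 5.69) and Slc16a1 at least 11.8-fold against the floor. Slc16a3 was at least 4.62-fold higher. Aldoa, with 1.47-fold less than WT (1.16 to 1.85), and Rpia, with a fold of 1.12 (0.815 to 1.56), stood closer to WT in lymph node than in VQ marrow. Hif1a was 22.1-fold lower on 2 UMIs (4.57 to 210).

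The VQ marrow libraries also held 19 and 18 cells at or above the Jchain split, which share library and handling with the kept VQ cells. They held 27678 UMIs, and the comparison, in unscaled CPM, was added after the data were seen. The 34 genes together had 4366 CPM in the kept cells and 2385 in the cells above the split, a fold of 1.83 (1.44 to 2.37). Ldha had 797 against 72.3 CPM, 11.0-fold (3.05 to 91.2) on 2 UMIs, and Slc16a1 200 against 0, at least 1.84-fold. Of these 2 genes, the interval of Ldha lies above 1, and the bound of Slc16a1 rests on 0 UMIs. The other genes called higher against WT were not all apart here: Pkm had a fold of 1.17 (0.632 to 2.45), Gpi1 of 0.901 (0.381 to 2.80) and Pdk1 of 1.36 (0.371 to 11.4), with intervals that include 1. So do those of Tpi1, at 1.86 (0.629 to 9.05), and Pgd, at 3.35 (0.593 to 133). Pdha1 and Tkt, with 0 UMIs above the split, were at least 1.35-fold and 1.44-fold higher. Proliferation markers in the cells above the split summed to 9.37 and 17.9 UMIs per 10000. Among the genes called lower against WT, Aldoa, at 251 against 325 CPM, had a fold of 0.770 (0.401 to 1.70) and Hif1a of 0.168 (0.0233 to 7.37). Rpia, at 2.51 (0.689 to 20.9), and Taldo1, at 4.95 (0.881 to 196), went the other way.

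Of 51 further glycolysis, pyruvate and pentose phosphate genes, 25 passed the filter; 6 were higher in VQ marrow than WT (background: 17.0% of all genes tested) and 1 was lower (background: 12.3%). Among those with UMIs in WT, the largest fitted increases were of Pgam2, known as the muscle phosphoglycerate mutase, at 24.8, 231, 291 and 177 CPM (log2 fold change 3.35 ± 0.48, adjusted p = 5.00e-10), and of Eno1b, given above. Eno3, the muscle enolase, had 0, 76, 30 and 40 UMIs and was at least 3.79-fold higher than WT (adjusted p = 5.69e-05). Dlat, the acetyltransferase subunit of pyruvate dehydrogenase, had 0, 110, 45 and 72 UMIs and was at least 5.55-fold higher (adjusted p = 5.25e-07). Txnip, which restrains glucose uptake, was the lower one, at 757, 346, 282 and 262 CPM (-1.25 ± 0.20, adjusted p = 2.82e-08). In lymph node against VQ marrow only Eno1b was called.

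Of 24 regulators and non-glycolytic targets of HIF, 17 passed the filter; 3 were higher in VQ marrow than WT (background: 17.0%) and 2 were lower (background: 12.3%). Mif, a cytokine, had 242, 560, 559 and 820 CPM (1.21 ± 0.24, adjusted p = 8.99e-06). Ero1l, the ER oxidase, had 62.1, 184, 174 and 214 (1.53 ± 0.40, adjusted p = 0.00107). P4ha2, a collagen prolyl hydroxylase subunit, had 0, 50, 25 and 45 UMIs and was at least 2.68-fold higher (adjusted p = 7.74e-04). Bnip3l, a mitophagy receptor, had 112, 27.4, 36.1 and 15.2 CPM (-1.88 ± 0.47, adjusted p = 7.58e-04), and Cited2, which competes with HIF-1 for its coactivator, had 540, 223, 307 and 268 (-1.07 ± 0.22, adjusted p = 2.43e-05). In lymph node against VQ marrow only Mif was called (0.55 ± 0.15, adjusted p = 0.0192).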

How the data were processed

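The values the authors deposited are unscaled UMI counts, 1 table of cells by genes per library, for barcodes that passed a knee filter. Per the labels, cells were isolated on the Bio-Rad ddSEQ instrument and libraries made with Illumina's SureCell 3′ kit; reads were placed on mm10, according to the submitters' processing notes. The aligner and annotation are not given in the sources used here.

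Counts of the kept cells were summed per library without Jchain and fitted with edgeR 4.0.16 in R 4.3.3 (TMM, filterByExpr, quasi-likelihood test, 3 group means, 1 residual degree of freedom, Benjamini-Hochberg adjusted p under 0.05 called). SE is the log2 fold change over the square root of F. The common biological coefficient of variation was 0.0926. Replicate sums in VQ marrow varied beyond counting noise (a chi-square of 1.57 per degree of freedom over 9020 genes). UMIs are clustered in cells, so sets of cells from the same preparation could also exceed counting noise. The value thus cannot show that the replicates are independent. The p-values measure only the spread between them, which may be technical. Folds and shares carry 95% exact intervals from scipy 1.17.1, which cover counting error only; a fold against 0 uses a floor of 3 counts over the group. Fitted log2 fold changes depend on a prior count. Doublets were not removed. Gene positions and transcript sequences are from GENCODE vM21, promoters from RefSeq. The 34 genes, the further lists and the tests were chosen with earlier results of these data known. All 34 genes are given, in order of role; of the further lists, at most the 4 largest changes in each direction are named. DESeq2 1.42.0 and other settings were tried as alternatives.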

Additional observations from a re-analysis of the deposited data

How the results depend on the processing

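The number of the 34 genes called higher in VQ marrow than WT was 9, and 3 without cells holding MHC class II UMIs (which left 17 WT cells with 14372 UMIs), 3 with a preset coefficient of variation of 0.2, 2 with DESeq2, and 0 with sums thinned to the WT total (6 members at an unadjusted p under 0.05 with edgeR, and prior degrees of freedom of 1.01 in place of 278) or without proliferating cells (1 such member). The number called lower was 4, and 2 with no filter or the preset variation, 1 with the split at 10%, without cells holding markers of another type or with DESeq2, and 0 without proliferating cells, without MHC class II cells or with thinned sums. The number higher in lymph node than VQ marrow was 4, and 1 with the preset variation (Slc16a3), and 0 without proliferating cells, with thinned sums (1 member each at an unadjusted p under 0.05) or with DESeq2. The number at least 2-fold above WT in lymph node was 14, and 7 with all cells of each library. Over all genes, VQ marrow against WT gave 1429 higher and 1034 lower, against 249 and 243 with DESeq2, 907 and 730 with the preset variation, 284 and 69 without MHC class II cells, 25 and 55 without proliferating cells, and 0 and 0 with thinned sums (1526 at an unadjusted p under 0.05); lymph node against VQ marrow gave 148 and 104, against 13 and 10 with DESeq2, 47 and 36 with the preset variation, 68 and 42 with the split at 2%, 7 and 37 without proliferating cells, and 0 and 0 with thinned sums (292 at an unadjusted p under 0.05). Ldha kept its call against WT in 10 of 12 settings, Slc16a1 in 10 of 11 and Aldoa in 9 of 12. The least stable calls against WT were Rpia (kept in 2 of 12), Taldo1 (3 of 12), Gpi1 and Pgd (4 of 12 each) and Pdha1 and Tkt (5 of 11 each). Slc16a3 kept its call between lymph node and VQ marrow in 9 of 10. In the main fit Slc16a1 and Slc16a3 had to differ, as given above, and the settings reuse the same libraries. How often these 2 genes kept their calls therefore adds no support. Log2 fold changes against WT changed sign for Gpi1 (-0.019 with all cells, -0.29 against VQ marrow cells above the split), Tkt (-0.11 with all cells), Rpia (0.13 without proliferating cells, 2.17 without MHC class II cells, 1.01 against VQ marrow cells above the split) and Taldo1 (0.23 without proliferating cells, 1.73 against VQ marrow cells above the split). Pfkp, Bsg, Pdk3 and Pdhb were called against WT in 1 or 2 settings each. The causes were not tested. Leaving out a VQ marrow replicate leaves no residual degree of freedom, so it gave values with no test: Gpi1 went from 0.67 to 1.11, Rpia from -0.80 to -0.49, and Slc16a3 in lymph node from 3.31 to 4.18. No paired analysis was possible because WT marrow and lymph node carry no replicate number. The WT depth limits every fold against WT.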

Other observations

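The 57 WT cells with Jchain under 5% of UMIs were left out of the main comparisons and entered the setting with all cells of each library. They held 135688 UMIs without Jchain, and markers of B cells and their precursors summed to 55.3 per 10000, neutrophil markers to 72.3 and proliferation genes to 44.5. Unscaled, Ldha stood at 413 CPM in these cells, against 98.5 in the WT cells above the split. Slc16a1 had 7 UMIs, or 51.6 CPM, and Tkt and Gpi1 stood at 287 and 265. Aldoa, at 413 CPM, was below the 609 of the WT cells above the split.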
